A study of Homo sapiens with 6 samples.

Results

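The genes described are the 10 core genes of the human circadian clock, CLOCK, BMAL1, PER1, PER2, PER3, CRY1, CRY2, NR1D1, NR1D2 and DBP. They were chosen by name, and each matched 1 of the 38900 Ensembl gene IDs of the deposited table. All 10 were abundant enough to be tested, with from 14 to 848 recovered reads per library. RNA came from hTERT RPE1, a long-established, telomerase-immortalised line of human retinal pigment epithelium, and the labels name no other genetic change. Cultures were held at full confluency for 5 days and then received fresh medium with 0.1% DMSO, the solvent, in 3 libraries or with 100 nM combretastatin A4 (CA4) in 3 libraries, for 6 hours. CA4, a plant-derived tubulin ligand, makes microtubules fall apart, and the comparison asks how clock transcripts differ after that loss in confluent cells. Both groups had the same medium change and the same single harvest time, and the clock hour of harvest is not given in the sources used here, so a change in level and a change in phase cannot be told apart.

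The circadian clock is a loop of transcription factors that runs in nearly every cell. CLOCK and BMAL1 pair up, bind E-box motifs and switch on the PER and CRY genes, whose proteins gather and then block CLOCK and BMAL1. A second loop runs through NR1D1 and NR1D2, the REV-ERB nuclear receptors, which CLOCK and BMAL1 also switch on and which repress BMAL1 through elements shared with the ROR receptors. DBP is an output factor of the PAR bZIP family that is driven by E-boxes and acts on D-box motifs. In cultured cells a change of serum or medium can reset the loop, with PER1 and PER2 responding first through CREB and SRF.

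Promoter sequences of 5 of these genes are shown because NR1D1, PER3 and NR1D2 are among the members with the largest differences between groups, while PER1 and PER2 differed least among the PER genes. They are RefSeq windows on GRCh38.p14, cut to 40 bases on each side of the outermost motif match where the 250 bases before the start allowed it and kept clear of exons in GENCODE 29. The stretches of NR1D1 and PER3 lie before the annotated gene, and those of NR1D2, PER1 and PER2 lie within its span, before a start inside it. Each is written 5′ to 3′ on the strand of the gene, and capitals mark a match to an E-box (CACGTG), an E′-box (CACGTT), a D-box (TTANGTAA), a ROR element (TAGGTCA) or a cAMP response element (TGACGTCA), each searched on both strands with overlaps allowed.
NR1D1, chr17:40100726-40100797, minus strand: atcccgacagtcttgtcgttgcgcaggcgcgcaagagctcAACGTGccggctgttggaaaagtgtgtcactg
PER3, chr1:7784074-7784161, plus strand: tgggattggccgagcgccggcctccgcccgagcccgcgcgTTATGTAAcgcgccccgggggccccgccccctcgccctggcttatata
NR1D2, chr3:23945887-23946061, plus strand: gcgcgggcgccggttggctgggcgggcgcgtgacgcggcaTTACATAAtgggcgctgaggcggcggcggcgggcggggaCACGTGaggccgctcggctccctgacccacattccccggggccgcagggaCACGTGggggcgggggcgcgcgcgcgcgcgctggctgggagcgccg
PER1, chr17:8152532-8152617, minus strand: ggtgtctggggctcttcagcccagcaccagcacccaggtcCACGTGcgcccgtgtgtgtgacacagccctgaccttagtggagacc
PER2, chr2:238288762-238288847, minus strand: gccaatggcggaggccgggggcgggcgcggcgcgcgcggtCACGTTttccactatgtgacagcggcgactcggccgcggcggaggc

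In the 250 bases before each RefSeq start, 15 windows for the 10 genes, an E-box was found in 2 of the 10 genes, PER1 and NR1D2, against 7.73% of 27305 genes in the same table. NR1D2 held 2 E-boxes, beginning 155 and 105 bases before the start, and a D-box. The E′-box was found in 5 members, CLOCK, CRY1, CRY2, NR1D1 and PER2, against 5.53% of genes. A D-box stood before PER3 and NR1D2 (2.48% of genes) and a ROR element before CRY2 (2.01% of genes). None of the 5 motifs lay in the windows of BMAL1 and DBP, and none of the 10 genes had a cAMP response element there (2.03% of genes). A match describes these letters and was not tested as a binding site.

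Among the clock genes the REV-ERB receptor gene NR1D1 was lower in CA4, and it was the single member past the threshold. PER3, NR1D2 and DBP also had their 3 CA4 libraries wholly below the 3 DMSO libraries, with log2 fold changes from -1.80 to -0.70 that missed the threshold. CLOCK, CRY1, PER1 and PER2 had overlapping groups and fold changes between -0.08 and 0.30, where the value of PER2 was so near 0 that it took the sign of the shift common to all genes when libraries were scaled to the same total or the same 75th percentile. The threshold is 0.05 for the adjusted p of limma, whose moderated test was fitted on log2(normalized count + 1) of all 13928 tested genes and adjusted over them by the Benjamini-Hochberg method. Of those genes 4.94% passed in either direction and 1.97% passed as lower in CA4, against 1 of the 10 members, lower. As higher 2.97% passed, against 0 members by limma, by edgeR or by DESeq2, and 0 members were higher at an unadjusted p under 0.05. With DESeq2 on recovered reads, and in limma without DMSO replicate 1, 4 members passed as lower, NR1D1, PER3, NR1D2 and DBP (11.6% and 7.14% of genes passed). Without DMSO replicate 2 or 3, or CA4 replicate 1 or 3, 0 members passed in limma (0.582% to 1.12% of genes). The unadjusted threshold was met by 5 members, all lower, against 23% of tested genes in either direction. Libraries of CA4 lay wholly below those of DMSO in 5 members (NR1D1, PER3, NR1D2, DBP and CRY2), against 13.4% of tested genes, and wholly above in 0 members, against 14.3%. The fitted difference was negative for 8 of 10 members, with a median log2 difference of -0.43 against -0.01 over all tested genes. With the same total in each library 9 members were negative, and that scaling moved the median of all tested genes by -0.10. These are counts of transcripts in whole cultures, in which fewer cells and less RNA per cell cannot be told apart.

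**Figure D1:**
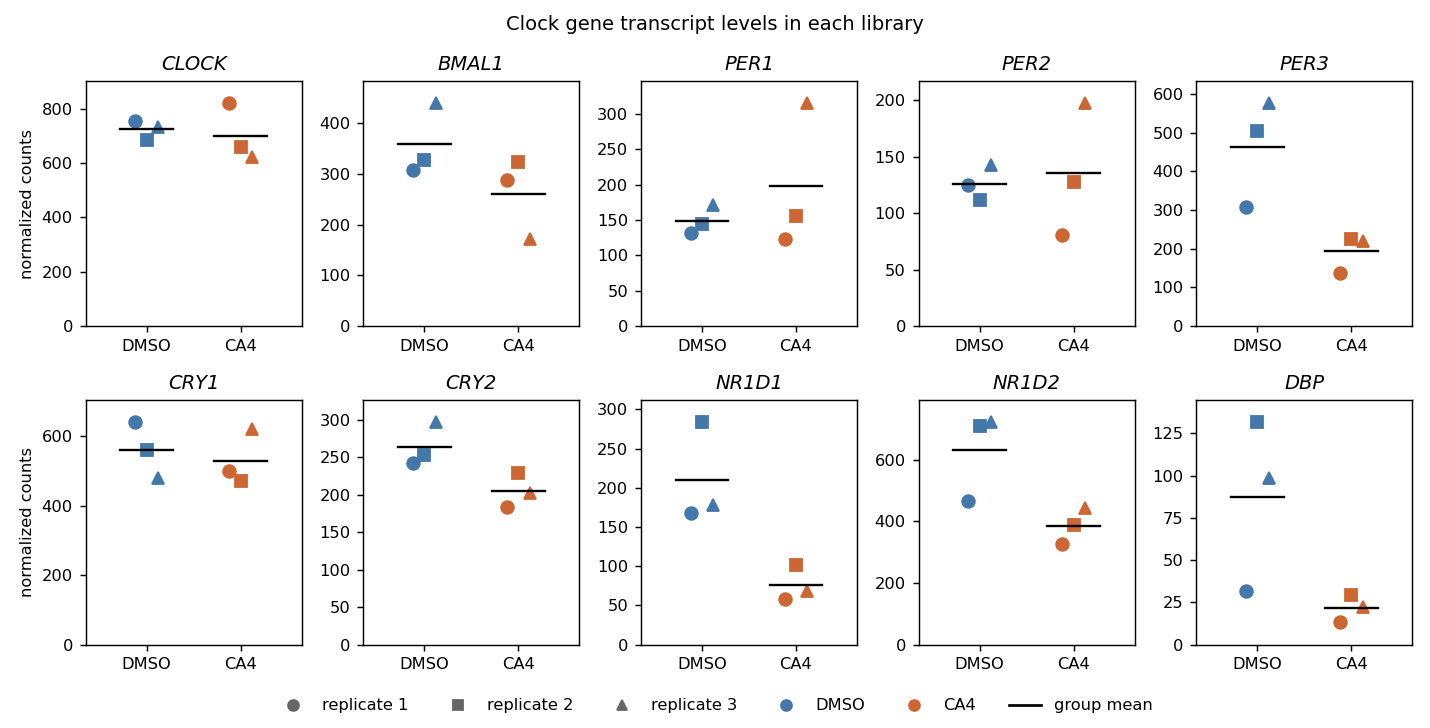
Normalized counts (y axis, from 0, own scale in each panel) of the 10 clock genes in each library, by group; the symbol gives the replicate number and the bar the group mean. The CA4 points of PER3, CRY2, NR1D1, NR1D2 and DBP all lie below the DMSO points, and 1 CA4 library stands high in PER1 at 315.

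NR1D1 (ENSG00000126368, minus strand of chromosome 17, 40092787 to 40100725 in GENCODE 29) encodes REV-ERB alpha, a haem-binding repressor of BMAL1. In replicates 1, 2 and 3 it had 168, 284 and 179 normalized counts in DMSO and 58.0, 101 and 68.0 in CA4. Even the highest CA4 library stayed below the lowest DMSO library. Group means were 210.3 ± 64.3 and 75.7 ± 22.5 (SD, n = 3 each), a log2 difference of -1.46 (SE 0.29, adjusted p = 0.0337 by limma), which is 2.75-fold lower. The direction held in every fit without a library, but the call did not: it was kept without DMSO replicate 1 or CA4 replicate 2 and lost without DMSO replicate 2, DMSO replicate 3, CA4 replicate 1 or CA4 replicate 3, with limma adjusted p-values from 0.102 to 0.110 in these 4 fits. It was also lost without the variance trend (limma adjusted p = 0.0755).

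The 3′ end of NR1D1 runs into THRA, the thyroid hormone receptor alpha gene on the opposite strand, and 9.5% of its exon bases are shared with it. Whether reads were counted by strand is not given in the sources used here, so reads of the shared 263 bases cannot be told apart. THRA itself had 814, 1422 and 1071 normalized counts in DMSO and 625, 1013 and 728 in CA4, groups that overlapped, with a log2 difference of -0.48 (SE 0.24, adjusted p = 0.287 by limma). Per library, the log2 ratio of NR1D1 to THRA averaged -2.39 ± 0.17 over DMSO and -3.37 ± 0.05 over CA4 libraries (SD, n = 3 each), a difference of -0.99. Over the 6 libraries THRA followed NR1D1 with a Pearson r of 0.869, to which the group difference contributes. The ratio of NR1D1 to THRA was lower in each CA4 library than in each DMSO library.

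NR1D2 (ENSG00000174738, plus strand of chromosome 3, 23945260 to 23980618) encodes REV-ERB beta, which shares the work of REV-ERB alpha. Its DMSO libraries held 465, 711 and 723 normalized counts and its CA4 libraries 325, 387 and 441. All CA4 values lay below all DMSO values, the nearest pair being DMSO replicate 1 and CA4 replicate 3. The log2 fold change was -0.70 (SE 0.20, 95% interval -1.17 to -0.23), and its adjusted p by limma, 0.0895, was above the threshold. Without DMSO replicate 1 the value was -0.91 and passed (limma adjusted p = 0.0237).

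DBP (ENSG00000105516, minus strand of chromosome 19, 48630030 to 48637438), the D-box activator, had the largest fitted difference of the 10 genes and the fewest reads. It was at 31.9, 132 and 98.8 normalized counts in DMSO and at 13.5, 29.2 and 22.3 in CA4. DMSO replicate 1 lay near the CA4 libraries, and 14 reads stood behind the lowest CA4 value. Group means were 87.5 ± 50.9 and 21.7 ± 7.84 (SD, n = 3 each), with a log2 difference of -1.80 (SE 0.55, adjusted p = 0.105 by limma). Leaving out DMSO replicate 1 gave -2.41 (limma adjusted p = 0.0212). In GENCODE 29, 10.1% of the exon bases of DBP lie in SPHK2 on the opposite strand, which had means of 339 normalized counts in DMSO and 333 in CA4.

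The 3 PER genes encode the period proteins, the carriers of the delayed repression. PER3 (ENSG00000049246, plus strand of chromosome 1, 7784320 to 7845177) had 307, 506 and 576 normalized counts in DMSO and 136, 224 and 221 in CA4. Its groups did not overlap, and DMSO replicate 1 was the lowest of its group. The means of 463 ± 139.6 and 194 ± 49.8 (SD, n = 3 each) gave a log2 difference of -1.24 (SE 0.29, adjusted p = 0.0528 by limma), just above the threshold. Of 18 alternatives PER3 passed in 5 and did not in 13. Among the 5 were DESeq2 (adjusted p = 4.59e-04), limma without DMSO replicate 1 (0.0204), limma with the same total in each library (0.0385) and limma limited to means of 50 normalized counts or more (0.0459). Among the 13, limma gave 0.0721 with quantile normalization, 0.108 without the variance trend and 0.0785 to 0.173 without one of the other 5 libraries. Of its exon bases 10.7% lie in UTS2 on the opposite strand, which was listed at 0 in both groups.

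PER1 (ENSG00000179094, minus strand of chromosome 17, 8140472 to 8156506), which responds early to many resetting signals, was at 131, 144 and 172 normalized counts in DMSO and at 124, 156 and 315 in CA4. CA4 replicate 3 stood apart and the other CA4 libraries lay within or just below the DMSO range. Its log2 fold change was 0.30 (SE 0.33, 95% interval -0.48 to 1.08, adjusted p = 0.641 by limma), and without CA4 replicate 3 it was -0.09. PER2 (ENSG00000132326, minus strand of chromosome 2, 238244038 to 238290102) had 125, 111 and 142 in DMSO and 80.2, 128 and 197 in CA4. Between them, CA4 libraries of PER2 spanned the whole DMSO range, with replicate 1 below it and replicate 3 above it. The log2 difference of PER2 was 0.01 (SE 0.32, 95% interval -0.73 to 0.75, adjusted p = 0.989 by limma), and it was negative without DMSO replicate 2 (-0.07) or CA4 replicate 3 (-0.31). The interval of PER2 spans changes of more than 1.5-fold in either direction.

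CRY1 and CRY2 encode the cryptochromes, the strongest repressors of CLOCK and BMAL1. CRY1 (ENSG00000008405, minus strand of chromosome 12, 106991364 to 107093829) was at 642, 562 and 480.5 normalized counts in DMSO and at 501, 470.1 and 621 in CA4. Its ranges overlapped, with a log2 difference of -0.08 (SE 0.15, 95% interval -0.44 to 0.28, adjusted p = 0.798 by limma), which was 0.02 without DMSO replicate 1. CRY2 (ENSG00000121671, plus strand of chromosome 11, 45847118 to 45883248) had 242, 252 and 297 in DMSO and 184, 229 and 202 in CA4. Each CA4 library of CRY2 was below each DMSO library by a small margin, with a log2 difference of -0.37 (SE 0.15, adjusted p = 0.201 by limma).

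The genes of both activators had overlapping groups. CLOCK (ENSG00000134852, minus strand of chromosome 4, 55427903 to 55547138) had 754, 684 and 733 normalized counts in DMSO and 819.6, 659 and 621 in CA4. All DMSO values lay inside the CA4 range, and the log2 fold change was -0.06 (SE 0.13, 95% interval -0.35 to 0.23, adjusted p = 0.828 by limma), or 0.02 without CA4 replicate 3. BMAL1 (ENSG00000133794, named ARNTL in GENCODE 29, plus strand of chromosome 11, 13276652 to 13387266) was at 308, 328 and 439.7 in DMSO and at 288, 324 and 172 in CA4. CA4 replicate 3 had the lowest BMAL1 value of all 6 libraries. The log2 difference of BMAL1 was -0.49 (SE 0.26, 95% interval -1.09 to 0.11, adjusted p = 0.310 by limma), and without CA4 replicate 3 it was -0.21.

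**Figure D2:**
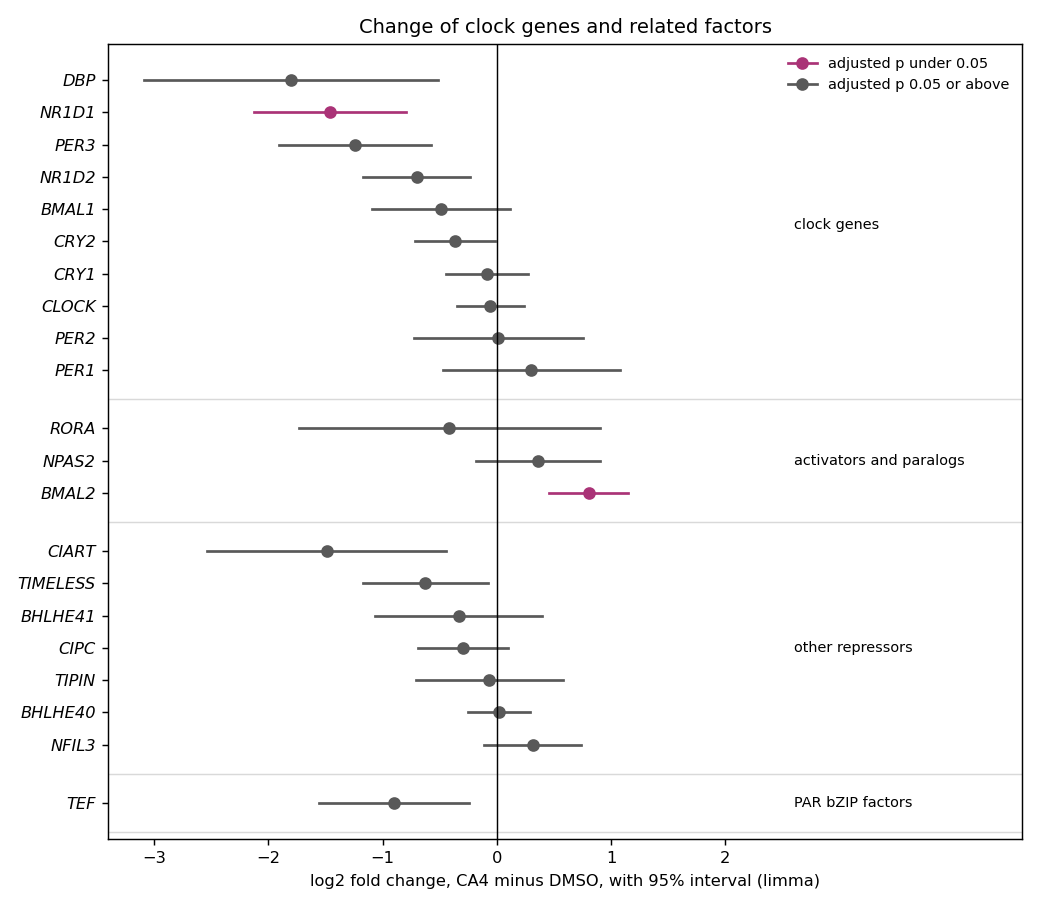
Log2 fold change, CA4 minus DMSO (x axis), with limma's 95% interval for the 10 clock genes and the 11 tested genes of 3 related lists (y axis); colour marks an adjusted p under 0.05. NR1D1 at -1.46 and BMAL2 at 0.81 are the 2 coloured points, and PER2 lies at 0.01, so near 0 that the common shift of all genes under 2 of the other scalings makes it negative.

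Libraries of 1 group differed from each other in a patterned way. Replicate 1 was the lowest of its group in both DMSO and CA4 for PER1, PER3, NR1D1, NR1D2, DBP and CRY2. This was also so for other genes, among them THRA and, described below, CIART, TEF and CIPC. It was instead the highest in both groups for CLOCK, and for TIMELESS and RORA among others. The share of all tested genes with either order was not counted. Replicate 1 was also the lowest in the sum of the 10 retinal pigment epithelium markers, at 1145 normalized counts against 1850 and 1682 in DMSO and at 650.4 against 1055 and 784.7 in CA4. Of the tested markers, MITF, OTX2 and BEST1 were lowest in replicate 1 of both groups. RPE65 was so in neither group, and PMEL and SERPINF1 were highest in DMSO replicate 1. These libraries, replicate 1 of each group, had the highest sum of the proliferation markers MKI67, TOP2A, CCNB1 and CDK1, at 9093 normalized counts in DMSO replicate 1 against 4372 and 4132 in replicates 2 and 3, and at 7475 in CA4 replicate 1 against 4248 and 2258. Those markers overlapped between the groups, and 0 of 4 passed by limma, edgeR or DESeq2, or had an unadjusted limma p under 0.05. CA4 replicate 3 was the highest of its group for PER1, PER2 and CRY1 and the lowest for CLOCK and BMAL1. It also had the highest sum of the endothelial markers PECAM1, CDH5 and VWF, 3224 normalized counts against 1616 and 1304 in CA4 replicates 1 and 2 and 944 to 1427 in DMSO. Of these 3 markers 0 passed by limma, edgeR or DESeq2. At an unadjusted limma p under 0.05 there was 1, PECAM1, against 23% of all tested genes. The part of these marker differences in the clock values was not tested.

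**Figure D3:**
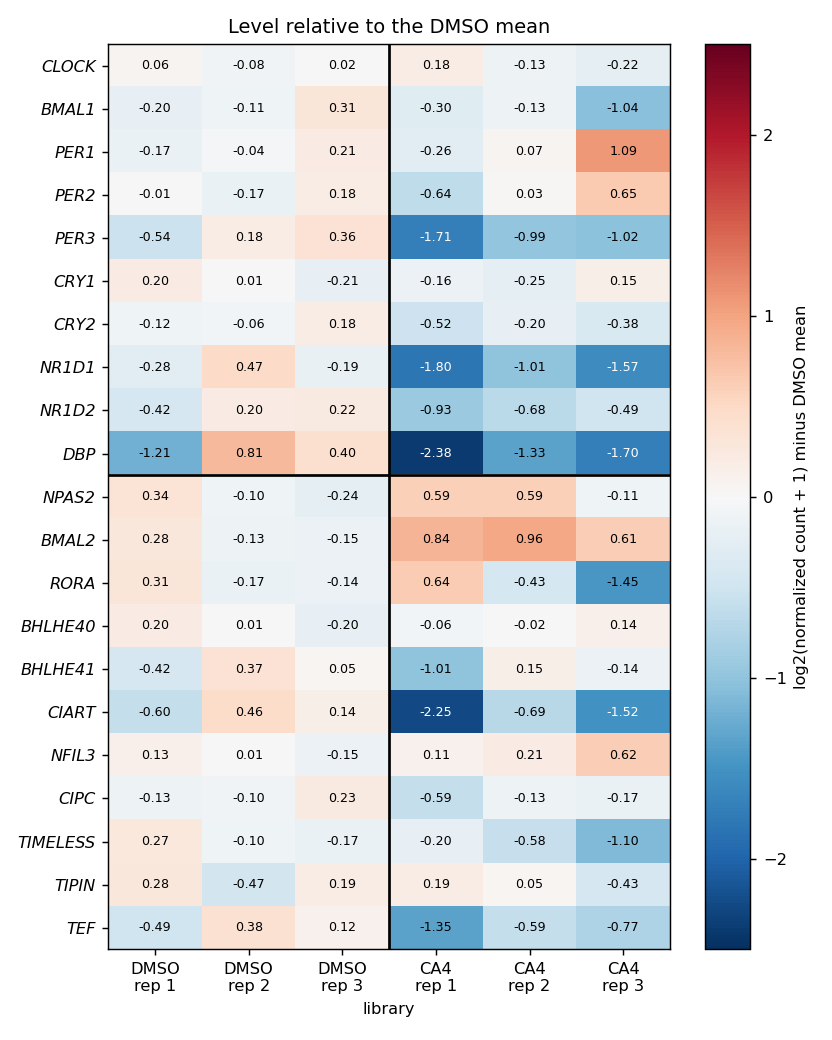
Log2(normalized count + 1) of each clock gene (top block) and of related clock factors (bottom block) in each library (columns) minus the mean of the DMSO libraries; blue is lower and red higher. BMAL1, PER3, CRY2, NR1D1, NR1D2 and DBP are below 0 in all 3 CA4 libraries. So are CIART, CIPC, TIMELESS and TEF of the bottom block, where BMAL2 and NFIL3 are above 0 in all 3. CA4 replicate 3 reads 1.09 in PER1 and -1.04 in BMAL1.

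Levels of different genes were compared per kilobase of exon in GENCODE 29, which assumes that all annotated exons are used. In DMSO the order ran from CRY1 at 111 ± 16.0 normalized counts per kilobase through NR1D2, NR1D1, CLOCK, PER3, BMAL1, CRY2, PER1 and PER2 to DBP at 13.4 ± 7.78 (SD, n = 3 each). Neighbours in this order had overlapping ranges except CRY2, at 39.1 to 47.9 per kilobase, and PER1, at 18.8 to 24.5. In CA4 the order began with CRY1 at 105 ± 15.7 per kilobase (SD, n = 3) and ended with DBP at a mean of 3.31, with libraries from 2.07 to 4.46. There NR1D1 took the seventh place at 27.3 ± 8.12 per kilobase against 75.9 ± 23.2 in DMSO, and PER3 the eighth at 23.9 ± 6.15 against 57.2 ± 17.2 (SD, n = 3 each). CRY1 stood clear of NR1D2 in CA4, with 92.9 to 123 per kilobase against 55.8 to 75.8. CLOCK and BMAL1, neighbours there, were also apart, and DBP lay below all others.

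**Figure D4:**
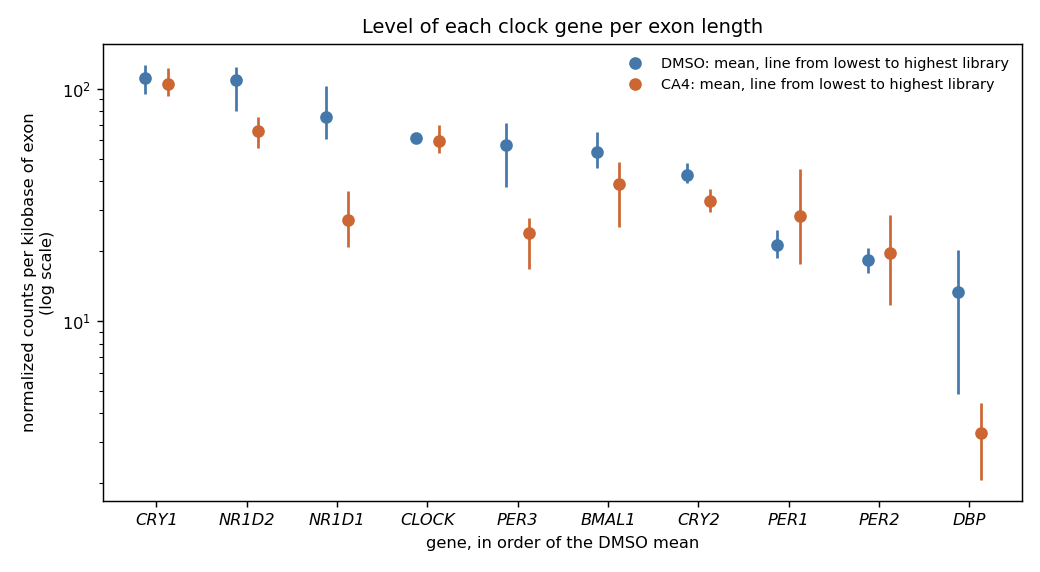
Normalized counts per kilobase of exon (y axis, log scale) of the clock genes in order of the DMSO mean; points are means and lines run from the lowest to the highest of 3 libraries. DBP is the lowest in both groups. The lines of the 2 groups do not overlap for NR1D1, PER3, NR1D2, CRY2 and DBP, the last 3 by a small margin.

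Related members were compared within each library by the log2 ratio of their normalized counts, in 6 pairs. The ratio of PER1 to PER3 was -1.22, -1.81 and -1.74 in DMSO and -0.14, -0.52 and 0.51 in CA4, a difference of 1.54. For PER2 to PER3 the DMSO libraries had ratios of -1.29, -2.17 and -2.01 and the CA4 libraries -0.76, -0.81 and -0.16, a difference of 1.25. In both pairs every CA4 library lay above every DMSO library, so PER3 was lower relative to its paralogs in CA4. The two-sided exact permutation test gave p = 0.1 for each, the smallest value that 3 libraries against 3 allow, and 0.3 after Benjamini-Hochberg adjustment over the 6 pairs. The other 4 pairs had overlapping groups. NR1D1 to NR1D2 differed by -0.76, CLOCK to BMAL1 by 0.43, PER1 to PER2 by 0.29 and CRY1 to CRY2 by 0.28 on the log2 scale, with exact permutation p-values from 0.2 to 0.4. This exact test could not pass the threshold for any pair with 3 libraries in each group, so it says nothing on whether paralogs responded alike.

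**Figure D5:**
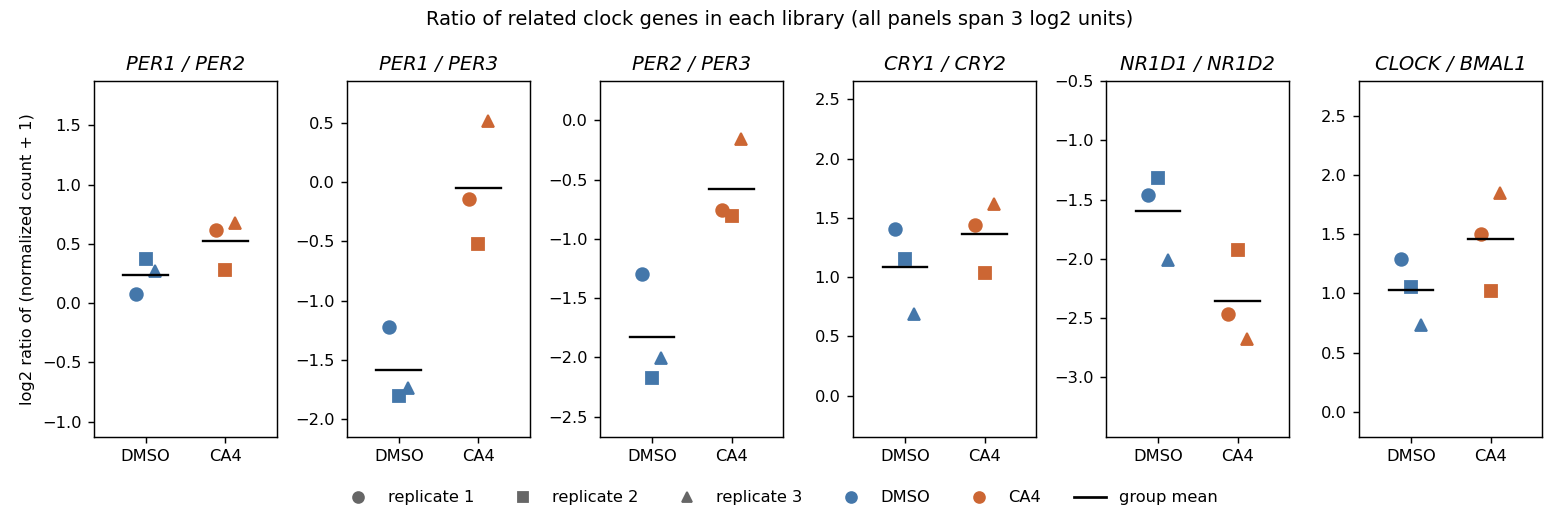
Log2 ratio of (normalized count + 1) of 2 related clock genes (y axis, same span in each panel) in each library, by group; the symbol gives the replicate number and the bar the mean. The ratios of PER1 and of PER2 to PER3 are higher in all 3 CA4 libraries, and the other 4 pairs overlap.

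The other clock factors were described from lists chosen by their known roles. Of 5 activators and paralogs 3 were tested, and 1 passed, higher in CA4, against 2.97% of all tested genes called higher. This was BMAL2, a paralog of BMAL1, which had 927, 697 and 688 normalized counts in DMSO and 1368, 1490 and 1168 in CA4. Every CA4 library exceeded every DMSO library, and the log2 fold change was 0.81 (SE 0.15, adjusted p = 0.0284 by limma). The call of BMAL2 was lost without the variance trend and in 5 of the 6 fits without a library, all but the one without DMSO replicate 1. NPAS2, which can replace CLOCK, had a log2 difference of 0.36 (limma adjusted p = 0.408). RORA, which opposes the REV-ERB receptors, had 6.69 to 31.9 normalized counts over the 6 libraries and a value of -0.41 (limma adjusted p = 0.712) that was 0.11 without CA4 replicate 3.

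Of 7 other repressors all were tested and their median log2 fold change was -0.30. By limma and by edgeR 0 passed, by DESeq2 1, CIART, passed as lower, and 2 were at an unadjusted limma p under 0.05, both lower. Over all tested genes DESeq2 called 11.6%, and 23% were at an unadjusted limma p under 0.05. CIART, a repressor of CLOCK and BMAL1, was at 59.9, 126 and 101 normalized counts in DMSO and at 18.4, 56.1 and 31.2 in CA4, without overlap. Its log2 fold change was -1.49 (SE 0.45, adjusted p = 0.102 by limma). TIMELESS, which also serves in DNA replication, had -0.63 (limma adjusted p = 0.168) and CIPC, which binds CLOCK, -0.30 (limma adjusted p = 0.346). TEF, the PAR bZIP factor related to DBP, had 170.0, 312 and 260.2 in DMSO and 93.7, 159 and 140.4 in CA4. It too showed no overlap, with a log2 difference of -0.90 (SE 0.28, adjusted p = 0.111 by limma). TEF passed by DESeq2 (adjusted p = 0.0290) and in limma without DMSO replicate 1 (adjusted p = 0.0477), and did not pass by edgeR. HLF, its other relative, was below the filter.

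Enzymes that mark or degrade the PER and CRY proteins were near the shares over all tested genes (4.94% past the threshold, 23% at an unadjusted p under 0.05). Of their 22 genes 20 were tested, 1 passed as higher and 0 as lower by limma, with 2 in each direction at an unadjusted p under 0.05, and the median log2 fold change lay near 0. By edgeR 0 passed (4.62% of all tested genes), and by DESeq2 2 passed as higher (11.6% of all tested genes in either direction). The one that passed, CSNK1E, the casein kinase 1 epsilon that phosphorylates PER proteins, had 3063, 3125 and 2909 normalized counts in DMSO and 4412, 3624 and 4111 in CA4. Its log2 fold change was 0.41 (SE 0.09, adjusted p = 0.0487 by limma), and it lost its call in 12 of 18 alternatives. USP2, a deubiquitinase, had 1.36 (limma adjusted p = 0.0647) and PPP1CC, a catalytic subunit of protein phosphatase 1, -0.29 (limma adjusted p = 0.102). CSNK2B, a subunit that most cells use, was listed at 0 in all 6 libraries, so a listed 0 may be a failed estimate.

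Among 15 genes that carry resetting signals to the clock, all tested, 1 passed as higher and 0 as lower by limma, the same counts as by edgeR, with a median log2 difference of -0.06. At an unadjusted limma p under 0.05, 1 was higher and 2 were lower, and 1 of these 2 passed by DESeq2. These counts were close to the shares over all tested genes, 4.94% past the threshold and 23% at the unadjusted p. SRF, the serum response factor, went from 3116, 2829 and 3261 normalized counts in DMSO to 4320, 4212 and 4712 in CA4, a log2 difference of 0.53 (SE 0.09, adjusted p = 0.0207 by limma). SRF lost its call without DMSO replicate 2 or 3, without CA4 replicate 1 or 3, and without the variance trend. SIK1, a kinase that restrains CREB signalling, was at 96.6, 97.2 and 105 in DMSO and at 64.8, 49.4 and 54.6 in CA4. These SIK1 groups were apart, but the log2 difference, -0.82 (SE 0.20), had an adjusted p of 0.0588 by limma. MRTFB, a cofactor of SRF, had -0.65 (limma adjusted p = 0.189).

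Genes that follow the clock in many tissues went both ways. Of 16 such genes 13 were tested, 2 passed as higher and 1 as lower by limma and by edgeR, and the median log2 fold change was 0.15. Over all tested genes limma called 2.97% higher and 1.97% lower. By DESeq2 4 passed as higher and 1 as lower (11.6% of all genes in either direction), and at an unadjusted limma p under 0.05 there were 4 higher and 2 lower. CDKN1A, which encodes the cell cycle inhibitor p21, passed as higher with a log2 difference of 1.15 (SE 0.08, adjusted p = 0.00154 by limma). TSC22D3, a glucocorticoid target also called GILZ, had 931, 1192 and 1481 normalized counts in DMSO and 635, 729 and 702 in CA4. TSC22D3 was thus lower in every CA4 library, with a log2 difference of -0.78 (SE 0.17, adjusted p = 0.0445 by limma). CDKN1A kept its call in each of the 18 alternatives. For TSC22D3 the call was lost in 7 alternatives, among them quantile normalization and each fit without a library but the one without DMSO replicate 1.

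Genes whose pattern over the 6 libraries was most like that of NR1D1 were sought among 11688 others whose mean reached 50 normalized counts. The 3 with the highest Pearson correlation of log2 values were CEP19 (r = 0.999), DISC1 (r = 0.998) and FUT8 (r = 0.997). The points share the difference between the groups, which enters every such r. Their log2 fold changes, -1.16, -0.95 and -0.51, follow from that choice and are given as a description. Of the clock genes, DBP had an r with NR1D1 of 0.914, PER3 0.903, NR1D2 0.858, CRY2 0.836 and BMAL1 0.603. CRY1 had 0.111, PER2 0.008, CLOCK -0.044 and PER1 -0.313. Of the related clock factors, r is given only for CIART (0.952) and TEF (0.931), both with CA4 libraries wholly below DMSO libraries. The r of the other related factors is not given, so CIART and TEF are not ranked among them.

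The 6 libraries held from 19524936 to 22538004 recovered reads. The cell line label was checked against 10 markers of retinal pigment epithelium, of which 6 were tested. The transcription factor genes MITF and OTX2 had 322 to 1085 and 226 to 630.1 normalized counts, and BEST1, which encodes a chloride channel, had 42.5 to 99.7. RPE65, the visual cycle isomerase, was lower at 13.5 to 40.8, and PMEL and SERPINF1 had 8.41 to 23.6. RLBP1 of the visual cycle and the pigment enzyme genes TYR and TYRP1 had at most 5.70, and TTR was listed at 0 in all libraries. The summed level of the 10 was 1145 to 1850 in DMSO and 650.4 to 1055 in CA4, and 1 of the 6, OTX2, passed as lower (log2 fold change -1.11, limma adjusted p = 0.0158). Over all tested genes 1.97% passed as lower by limma, and 11.6% passed by DESeq2 in either direction. MITF, at -0.98 with an adjusted p of 0.100 by limma, passed as lower by DESeq2 only, not by edgeR. The part of this shift in the clock values was not tested. Of 5 mesenchymal markers, all tested, PDGFRA alone passed, as lower (log2 fold change -1.28, limma adjusted p = 0.0147), against 1.97% of all tested genes. The sum of the 5 was 156425 to 168907 in DMSO and 146663 to 164092 in CA4. The calls of OTX2 and PDGFRA were both lost without DMSO replicate 2 or 3 and without CA4 replicate 1 or 3 (limma adjusted p from 0.0508 to 0.0816), and that of OTX2 also without the variance trend (limma adjusted p = 0.0573). The sum of 5 simple epithelial markers was 23456 to 26392 in DMSO and 26811 to 32549 in CA4, groups that were apart. Of the 3 tested, KRT18 was at a log2 difference of 0.46 with an adjusted p of 0.0849 by limma, and it passed as higher by DESeq2 and not by edgeR. Of 3 leukocyte markers, CD68, a lysosomal protein gene also expressed outside leukocytes, had 716.9 to 920.9 normalized counts in DMSO and 499.7 to 708.9 in CA4, PTPRC had 2.80 to 10.6 over the 6 libraries, and CD3E was listed at 0. The haemoglobin genes HBA1 and HBB were listed at 0. Nothing in the labels says that libraries of a group came from separate cultures, so the p-values measure the spread between these libraries, which may be technical.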

How the data were processed

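PolyA-selected RNA of hTERT RPE1 cells was sequenced in 6 libraries, and groups and replicate numbers were read from the sample titles. The deposited values are a signal, gene counts that the authors divided by a scaling factor of each library, with 1 column per library per the file headers, and they are called normalized counts. Per the submitters' processing notes, Trim Galore 0.6.6, FastQC 0.12.1, Salmon 1.8.0, STAR 2.7.9a, DESeq2 1.44.0 and the build GRCh38 were used. Their roles, the annotation release and the use of strand are not given in the sources used here. All values were whole multiples of the value of 1 read within 0.01, which gave recovered reads, possibly rounded estimates.

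Symbols came from the supplied name table, which held 35803 of the 38900 IDs. Those 13928 whose mean reached 10 normalized counts were tested with limma 3.58.1 in R 4.3.3 on log2(normalized count + 1), treatment as the only term, empirical Bayes with a mean trend, two-sided, Benjamini-Hochberg adjusted. This log2 scale understates changes of low genes. Errors of fold changes are moderated standard errors. edgeR 4.0.16 and DESeq2 1.42.0 on recovered reads, other pseudocounts, filters, scalings, variance models, the replicate block and leaving out each library were alternatives, 18 in all. The scripts were tested on simulated data. Named are all 10 clock genes, for each other list up to 3 genes with the smallest adjusted p and all past the threshold, and the 3 genes most like NR1D1. One gene that this rule names is not reported here. THRA and SPHK2 are named for their overlap, CSNK2B, HLF and the markers for their levels. The members and lists were chosen with earlier results of these data known.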

Additional observations from a re-analysis of the deposited data

How the results depend on the processing

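Against 1 member and 688 genes past the threshold, testing only genes with a mean of at least 50 gave 2 members (6.88% of genes passed), scaling to the same total 2 (5.76%), no variance trend 0 members and 103 genes (0.74%), and DESeq2 on recovered reads 4 members and 1613 genes (11.6%). edgeR gave 1 member (4.62%). Leaving out 1 library gave from 0 to 4 members and from 81 to 994 genes. The 4 members came without DMSO replicate 1 (7.14%), 0 members without DMSO replicate 2 or 3 or without CA4 replicate 1 or 3, and 1 without CA4 replicate 2 (3.61%), and fewer libraries lower the power. The members called in addition to NR1D1 were PER3 in the first 2 of these settings and PER3, NR1D2 and DBP in the settings with 4, all lower. NR1D1, at -1.46, had an adjusted p of 0.0755 without the variance trend. PER3 passed at -1.24 under the stricter filter, at -1.34 with the same total and at -1.26 in DESeq2 (adjusted p = 4.59e-04). In DESeq2, NR1D2 was at -0.72 (adjusted p = 0.0132) and DBP at -2.02 (adjusted p = 0.00734). The cause of these changes was not tested. PER2 reversed to -0.088 with the same total and to -0.020 with the same 75th percentile, which moved the median of all genes by -0.10 and -0.033, so that the reversal is that common shift.

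Over the fits without a library, log2 fold changes ran from -0.18 to 0.023 for CLOCK, -0.67 to -0.21 for BMAL1, -0.092 to 0.58 for PER1, -0.31 to 0.34 for PER2, -1.51 to -1.004 for PER3, -0.20 to 0.020 for CRY1, -0.45 to -0.28 for CRY2, -1.69 to -1.22 for NR1D1, -0.91 to -0.58 for NR1D2 and -2.41 to -1.40 for DBP. For RORA they ran from -0.94 to 0.11. All 6 paralog differences kept their sign under both pseudocounts and without each library.

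With the replicate number as a block, 4 members and 2397 genes passed (17.2%), namely NR1D1, PER3 at -1.24 (limma adjusted p = 0.00196), NR1D2 at -0.70 (limma adjusted p = 0.0087) and DBP at -1.80 (limma adjusted p = 0.0127). Of the other genes followed under each alternative, which leaves out most of the markers, those not past the threshold that passed with the block were TEF (limma adjusted p = 0.00756), CIART (0.0101), THRA (0.0117), CEP19 (0.0138), USP2 (0.0150), TIMELESS (0.0200), DISC1 (0.0284), PPP1CC (0.0354) and SIK1 (0.0376). The deviations of same-numbered libraries from their group means correlated at 0.202, 0.159 and 0.059, not all above 0.1, and the labels do not say what a number marks, so the libraries were not treated as paired. Each DMSO library correlated best with the CA4 library of its own number, a hint from the data and not the design. At this depth counting error is largest for DBP, with 14 to 141 reads per library, and it covers counting only.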
